A study of Mus musculus with 6 samples.

Results

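The transcripts described here encode growth factors, the receptor tyrosine kinases that bind them, and the guidance cues and guidance receptors that steer migrating cells. They were chosen by gene symbol, with a pattern that covers the FGF, PDGF, KIT, IGF, VEGF, EGF, HGF, TAM, DDR, ROR, NTRK, angiopoietin, EPH, semaphorin, SLIT, netrin and pleiotrophin families. The pattern took 94 of the 7320 genes that the deposited table lists. The table holds only genes that its authors had already called different between the lines, so that a call on a member is not independent evidence and genes of these families that the table does not list were not analysed here. Some members matched by name but belong to other families, namely Egfl6, Egflam, Slitrk5, Fgfr1op and the RNA-binding proteins Igf2bp1 and Igf2bp2, which are counted below with the IGF family.

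RNA was compared between ID8 and KMF, mouse ovarian cancer lines of C57Bl6 origin, both grown without treatment for 5 days as tumorspheres, floating clusters of cells in serum-free 3D PromoCell XF medium. ID8 is a clonal line from spontaneously transformed ovarian surface epithelium, and KMF (also called ID8-IP) is a derivative isolated from ascites of mice bearing ID8 cells. KMF carries spontaneous DNA gains and also losses, and the part of copy number in the differences was not tested. Each line had 3 RNA samples. ID8 replicates 1 to 3 were taken at passages 23, 24 and 35, and KMF replicates 1 to 3 at passages 14, 17 and 22. Every KMF sample was thus at a lower passage than every ID8 sample, and the part of passage in the differences was not tested. Each line is 1 culture lineage, and the p-values measure the spread between RNA samples of that lineage.

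Growth factors bind the outer part of a receptor kinase, which pairs with a second receptor, phosphorylates its own tail and recruits adaptors that feed the ERK and PI3K pathways. Binding proteins, heparan sulphate and decoy receptors set how much ligand reaches the receptor. Guidance cues were first studied in growing axons, where semaphorins signal through plexins with neuropilins as coreceptors, SLITs through ROBOs, netrins through DCC and UNC5, and ephrins through EPH kinases on the next cell. In epithelial tumors the same molecules bear on cell spreading, detachment and the recruitment of vessels.

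Library totals ranged from 23108407 to 33212313 fragments on genes. Across all listed genes log2 CPM, that is, counts per library total, correlated between libraries of a line with r from 0.986 to 0.995 and between lines with r from 0.866 to 0.879, a description across genes that had been selected for a difference. Of the markers of ovarian surface epithelium and mesothelium, 10 of 14 were listed, with a summed FPKM (fragments per kilobase, scaled to library size) between 261 and 337.8 in ID8 and between 215.6 and 265.1 in KMF. Wt1 was at 108 ± 12.1 FPKM in ID8 and 77.3 ± 13.2 in KMF, and Gata4 at 98.5 ± 7.73 and 47.3 ± 1.88 (SD, n = 3, as for every mean FPKM below). Other markers of that list, among them Upk3b, Krt7, Lrrn4 and Cdh1, were lower in KMF, while Msln was higher. ID8 replicate 3 (passage 35) stood apart most often: 15 of the 86 members with a mean count of at least 10 were lower in it than in both other ID8 libraries by more than 1.5 times, or 17.4%, against 7.42% of all listed genes. By the same margin, 10 members were lower in KMF replicate 3 than in both other KMF libraries (11.6%, against 3.2%). In KMF replicate 1, 6 members were lower (6.98%, against 4.27%) and 8 higher (9.3%, against 3.71%).

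Counts were compared with edgeR's quasi-likelihood test, and a gene is termed called where the Benjamini-Hochberg adjusted p was under 0.05. Among the 87 members with enough counts to be fitted, 77 were called, with 33 up and 44 down in KMF. Among all 6967 listed genes fitted, 92.9% were called, 45.4% as higher and 47.5% as lower, so the count of members called is near what the table itself gives. The CPM ranges of the lines did not overlap for 34 members higher and 51 lower in KMF and overlapped for 9, while over all listed genes 96.5% did not overlap, 46.3% on the higher and 50.2% on the lower side. A total of 20 members were called at least 2-fold higher and 32 at least 2-fold lower, which is 67.5% of the called members, against 43.6% of all called genes. These counts moved with the processing, to 13 higher under upper quartile scaling, 17 lower with at least 10 counts required in every library, and to 7 and 18 when limma was run on log2(FPKM + 1). Over all genes fitted, 18.0% were called at least 2-fold higher and 22.5% at least 2-fold lower. The median log2 fold change of the members was -0.54 against -0.23 for all genes fitted, and the median absolute log2 fold change was 1.22 against 0.79. The 10 members fitted and not called were Angptl2, Epha2, Ephb4, Pdgfb, Pdgfc, Sema3a, Sema3d, Plxnb1, Slit2 and Flt4. The 7 members below the count filter were Tie1, Erbb4, Fgf5, Ptn, Plxnc1, Kdr and Egfl6.

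**Figure D1:**
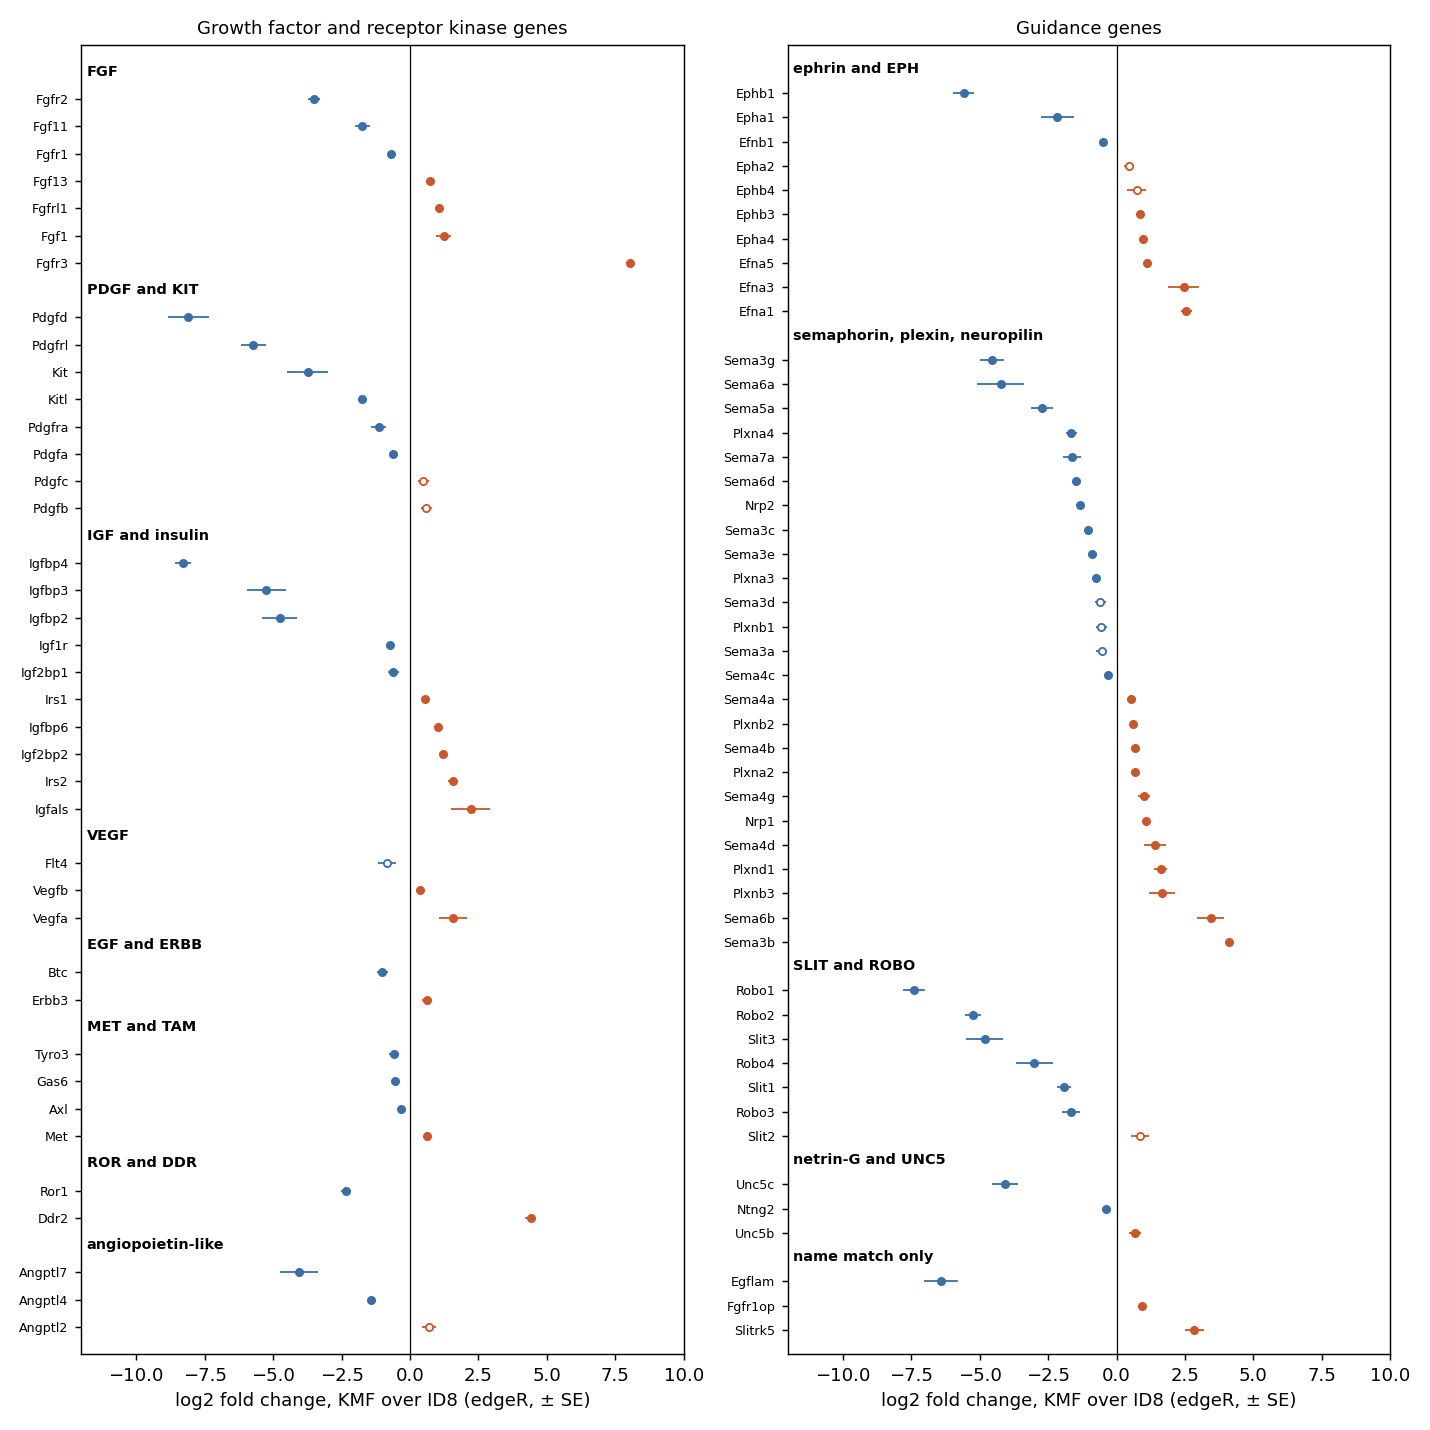
Fitted log2 fold changes of the 87 members tested, KMF over ID8, with bars of ± 1 SE from edgeR, grouped by family; filled circles were called, open circles were not, and red and blue mark higher and lower in KMF. Igfbp4, Robo1 and Fgfr3 lie farthest from 0 among members with counts in every library, and no SLIT or ROBO gene was called higher. The fitted points of Pdgfd, Ephb1 and Sema6a depend on the prior count, because KMF had 2 counts or fewer of each in every library.

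A mean FPKM above 1 was reached in both lines by 56 members, in ID8 alone by 12 and in KMF alone by 5, and 21 stayed at or below 1 in both. These are 59.6% of the members in both lines, 12.8% in ID8 alone and 5.32% in KMF alone, against 73.3%, 8.16% and 4.28% of all listed genes. The 12 above this threshold in ID8 alone were Fgfr2, Kit, Pdgfrl, Igfbp2, Igfbp3, Igfbp4, Angptl7, Sema3g, Robo1, Robo2, Robo4 and Egflam. The 5 above it in KMF alone were Fgfr3, Ddr2, Sema3b, Plxnb3 and Slit2, of which the last lay at the threshold, with Slit2 at 1.26, 1.05 and 0.586 FPKM in the ID8 libraries, and Plxnb3 reached 1.35 FPKM in ID8 replicate 2. All KMF libraries were at or under a floor of 3 counts, with at least 1 ID8 library above it, for 8 members, and the reverse held for 2. Of all listed genes, 5.26% were at the floor in KMF and 1.80% in ID8.

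The promoters of the members with the largest changes are shown because they anchor the sequence comparisons made further on, and they were picked after the changes had been seen. They are the gene with the largest rise (Fgfr3), the gene with the largest fall (Igfbp4) and 2 neighbouring guidance receptors that fell together (Robo1 and Robo2). Each window is 300 bases from RefSeq on GRCm38.p6, from 250 before to 50 after the annotated start, written 5′ to 3′ on the gene's strand, and capitals mark CG dinucleotides. The windows lie at chr5:33721474-33721773 on the plus strand (Fgfr3, with 26 CG), chr11:99040994-99041293 on the plus strand (Igfbp4, with 27), chr16:72662899-72663198 on the plus strand (Robo1, with 15) and chr16:74411776-74412075 on the minus strand (Robo2, with 17).
Fgfr3: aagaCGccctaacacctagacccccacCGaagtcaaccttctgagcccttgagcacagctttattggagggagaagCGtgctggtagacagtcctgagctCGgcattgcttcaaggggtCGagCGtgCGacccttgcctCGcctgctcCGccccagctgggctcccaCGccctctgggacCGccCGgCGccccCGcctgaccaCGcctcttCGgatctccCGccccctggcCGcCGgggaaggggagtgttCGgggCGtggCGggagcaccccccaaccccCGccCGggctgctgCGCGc
Igfbp4: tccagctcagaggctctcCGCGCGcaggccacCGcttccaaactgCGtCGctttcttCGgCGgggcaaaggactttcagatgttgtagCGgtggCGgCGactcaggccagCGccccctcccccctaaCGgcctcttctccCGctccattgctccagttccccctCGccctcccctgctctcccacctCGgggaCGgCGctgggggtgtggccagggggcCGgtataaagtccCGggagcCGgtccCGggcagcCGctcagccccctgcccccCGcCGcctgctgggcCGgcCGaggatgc
Robo1: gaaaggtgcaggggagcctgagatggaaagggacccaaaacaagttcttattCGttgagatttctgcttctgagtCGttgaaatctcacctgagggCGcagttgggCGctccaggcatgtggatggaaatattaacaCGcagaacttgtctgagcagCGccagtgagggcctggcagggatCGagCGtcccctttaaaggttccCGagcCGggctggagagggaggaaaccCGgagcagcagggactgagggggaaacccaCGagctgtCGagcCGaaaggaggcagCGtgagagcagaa
Robo2: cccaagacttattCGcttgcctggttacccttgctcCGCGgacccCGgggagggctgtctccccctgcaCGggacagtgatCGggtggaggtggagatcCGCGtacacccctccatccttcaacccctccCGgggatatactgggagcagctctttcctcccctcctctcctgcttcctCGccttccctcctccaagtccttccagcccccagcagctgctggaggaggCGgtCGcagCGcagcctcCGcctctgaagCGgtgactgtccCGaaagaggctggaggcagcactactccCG

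Which of the listed FGF receptors was most abundant differed between the lines. ID8 carried mainly Fgfr1, with some Fgfr2 and next to no Fgfr3, whereas in KMF Fgfr3 was the most abundant of these receptors and Fgfr2 was nearly lost. Fgfr3, a kinase receptor for FGFs (chr5:33721724-33737068), had 26, 15 and 27 counts in the ID8 libraries and 5247, 4815 and 7739 in the KMF libraries. No KMF library came near an ID8 library. Its mean FPKM rose from 0.201 ± 0.0511 to 52.1 ± 2.91, or 8.05 ± 0.14 on the log2 scale (± SE, edgeR adjusted p = 2.29e-07). Of its exon bases, 13.9% are shared with a gene model on the opposite strand (G630022F23Rik), whose reads cannot be told apart from it with this library kit. Fgfr2, the receptor that epithelia use for FGFs from the stroma (chr7:130162451-133123350), had 488, 347 and 474 counts in ID8 and 39, 25 and 49 in KMF. It fell from 3.72 ± 0.463 to 0.317 ± 0.0661 FPKM (log2 fold change -3.50 ± 0.20, edgeR adjusted p = 2.23e-05). Its exons share 3.04% of their bases with the protein-coding gene Ctbp2 on the same strand.

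Fgfr1, the broad FGF receptor, moved less: it had 5099, 4065 and 4211 counts in ID8 and 2582, 2133 and 3304 in KMF, and fell by 0.71 ± 0.08 on the log2 scale (edgeR adjusted p = 0.000416). Summed over Fgfr1, Fgfr2 and Fgfr3, the receptor FPKM was 37.3 ± 0.796 in ID8 and 72.4 ± 4.10 in KMF. Fgfr1 supplied 89.5% of that sum in ID8 and 27.5% in KMF, while Fgfr3 supplied 0.537% and 72.1%, and Fgfr2 9.96% and 0.436%. Shares within a line differed little, since Fgfr3 lay between 0.398% and 0.670% in the ID8 libraries and between 70.4% and 73.2% in the KMF libraries. Fgfrl1, which binds FGFs but has no kinase domain, had 826, 669 and 797 counts in ID8 and 1588, 1351 and 1668 in KMF (log2 fold change 1.06 ± 0.12, edgeR adjusted p = 0.0004).

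Among FGF genes, Fgf1, a ligand of all FGF receptors, rose with 101, 107 and 106 counts in ID8 and 135, 279 and 319 in KMF (1.00 ± 0.130 FPKM in ID8 and 2.29 ± 0.804 in KMF, log2 fold change 1.23 ± 0.28, edgeR adjusted p = 0.0103). Fgf11 and Fgf13 belong to the FGFs that stay inside the cell. Fgf11 fell from 448, 325 and 580 counts to 88, 153 and 153 (5.62 ± 1.60 FPKM in ID8 and 1.64 ± 0.488 in KMF, log2 fold change -1.74 ± 0.27, edgeR adjusted p = 0.00161), and Fgf13 rose by 0.73 ± 0.13. Fgf5, a secreted ligand, had 15, 12 and 7 counts in ID8 and 0, 0 and 1 in KMF, a ratio of 34.3 with an exact 95% counting interval from 5.75 to 1393. Of the 8 FGF family members, 4 were called higher and 3 lower, near the 45.4% and 47.5% of all genes fitted.

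**Figure D2:**
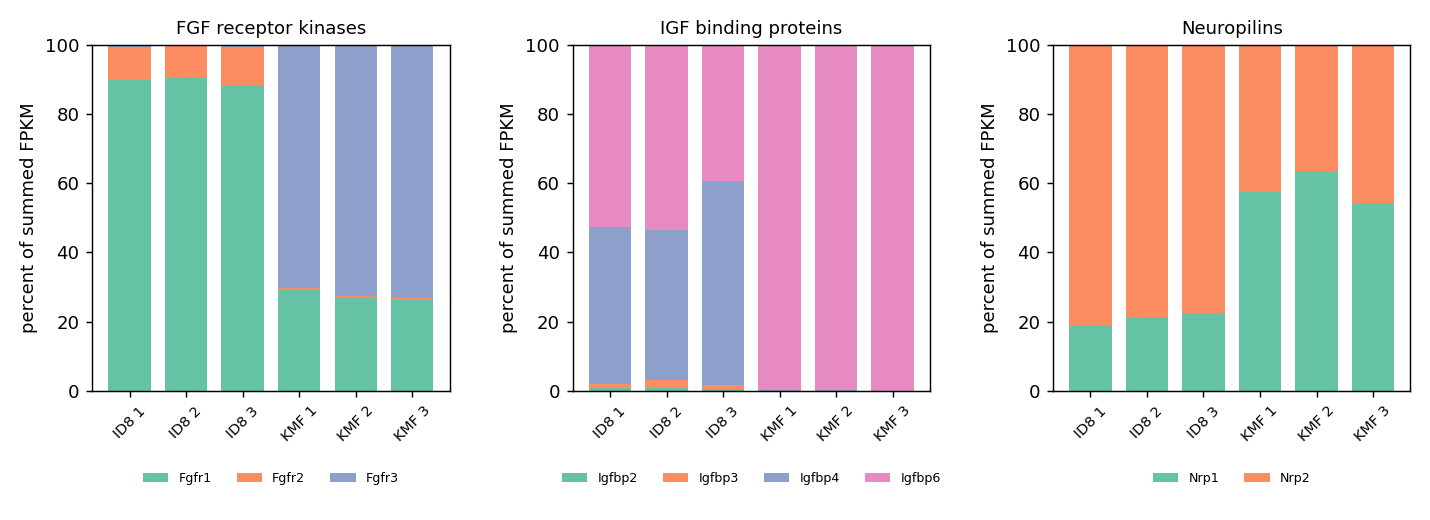
Share of the summed FPKM in each library for the FGF receptor kinases Fgfr1, Fgfr2 and Fgfr3 (left), the IGF binding proteins Igfbp2, Igfbp3, Igfbp4 and Igfbp6 (middle) and the neuropilins (right), in percent, with 1 bar per library. Fgfr1 holds the largest receptor share in every ID8 library and Fgfr3 in every KMF library, Igfbp6 fills almost the whole KMF bars, and Nrp1 has the larger neuropilin share only in KMF.

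In the insulin-like growth factor (IGF) family, the listed binding proteins changed in both directions. Igfbp4, a secreted protein that holds IGFs away from their receptor (chr11:99041244-99054392), had 15678, 11905 and 17157 counts in ID8 and 57, 48 and 32 in KMF. It was among the abundant transcripts of every ID8 library and fell from 147 ± 24.1 to 0.475 ± 0.198 FPKM (log2 fold change -8.28 ± 0.30, edgeR adjusted p = 4.87e-06). Igfbp3, the main IGF carrier of serum (chr11:7206086-7213923), had 265, 402 and 175 counts in ID8 and 5, 15 and 1 in KMF (4.47 ± 2.13 FPKM in ID8 and 0.123 ± 0.131 in KMF, log2 fold change -5.25 ± 0.71, edgeR adjusted p = 0.000803). Without KMF replicate 2 its log2 fold change was -6.53, and without KMF replicate 3 it was -4.58. Igfbp2 (chr1:72824503-72852474) fell from 87, 86 and 63 counts to 5, 3 and 0 (2.29 ± 0.424 FPKM in ID8 and 0.0872 ± 0.0818 in KMF, log2 fold change -4.76 ± 0.64, edgeR adjusted p = 0.000808), with -5.61 when KMF replicate 1 was left out and -4.02 without KMF replicate 3.

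Igfbp6, which prefers IGF2 (chr15:102144362-102149511), went the other way, with 5276, 4288 and 3310 counts in ID8 and 7522, 6857 and 11596 in KMF. Its level rose from 146 ± 25.6 to 289 ± 23.7 FPKM (log2 fold change 1.03 ± 0.14, edgeR adjusted p = 0.000812). Binding proteins that the deposited table does not list could not be summed with these. The summed FPKM of the 4 binding proteins was 299.7 ± 5.43 in ID8 and 289.9 ± 23.3 in KMF, and the libraries of the lines overlapped in this sum. Igfbp6 made up between 39.3% and 53.6% of it in the ID8 libraries and at least 99.66% in each KMF library.

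On the signaling side of the same family, the receptor gene Igf1r had 2891, 2004 and 2258 counts in ID8 and 1377, 1055 and 1722 in KMF and fell by 0.75 ± 0.11 on the log2 scale (edgeR adjusted p = 0.00118). Irs2, an adaptor that carries the receptor's signal to PI3K, rose from 570, 560 and 448 counts to 1582, 1243 and 1703 (4.97 ± 0.727 FPKM in ID8 and 14.3 ± 2.11 in KMF, log2 fold change 1.56 ± 0.15, edgeR adjusted p = 0.000184). The related adaptor Irs1 rose by 0.57 ± 0.14 (edgeR adjusted p = 0.0127, and 0.0583 without ID8 replicate 1). In all, 3 of 16 alternative fits lost the call of Irs1, among them limma on log2(FPKM + 1) (limma adjusted p = 0.0663). Of its exon bases, 30.9% are shared with the opposite-strand gene model Gm9747. Igf2bp1 and Igf2bp2 encode RNA-binding proteins named for their binding of Igf2 RNA. Igf2bp2 rose by 1.22 ± 0.10 (edgeR adjusted p = 8.1e-05), and Igf2bp1, below 1 FPKM in both lines, fell by 0.60 ± 0.20 (edgeR adjusted p = 0.0441, and between 0.101 and 0.172 when ID8 replicate 1 or 3 or any KMF replicate was left out). Igfals, which encodes a partner of the serum IGF complex, was scarce, with 7, 2 and 0 counts in ID8 and 11, 12 and 19 in KMF. Its log2 fold change of 2.21 ± 0.72 (edgeR adjusted p = 0.0432) became 3.57 without ID8 replicate 1, and its adjusted p was 0.0505 to 0.125 when any other library was left out. With all libraries, the call was also lost with DESeq2 (adjusted p = 0.0931) and under upper quartile scaling (edgeR adjusted p = 0.057).

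Of the 8 members of the PDGF and KIT family, 6 were called lower, 2 were not called and none was higher, against 47.5% lower and 45.4% higher among all genes fitted. Kit, the receptor of stem cell factor (chr5:75574916-75656722), had 1510, 1120 and 596 counts in ID8 and 163, 11 and 53 in KMF. KMF libraries lay below all ID8 libraries but differed widely among themselves. The means were 7.69 ± 2.86 FPKM in ID8 and 0.571 ± 0.656 in KMF, and the log2 fold change was -3.73 ± 0.75 (edgeR adjusted p = 0.00553) and -5.14 without KMF replicate 1. Kitl, its ligand (chr10:100015630-100100413), was abundant in ID8 and fell with it, from 10376, 7537 and 11027 counts to 2493, 2372 and 3579, or from 64.6 ± 10.6 to 18.7 ± 0.456 FPKM (log2 fold change -1.75 ± 0.11, edgeR adjusted p = 3.22e-05). Ligand and receptor were thus both lower in KMF.

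Pdgfra, a receptor for PDGFs, had 1299, 634 and 1224 counts in ID8 and 371, 539 and 424 in KMF (5.99 ± 1.75 FPKM in ID8 and 2.63 ± 0.829 in KMF, log2 fold change -1.15 ± 0.28, edgeR adjusted p = 0.0131). Pdgfrl, a protein related to the outer part of that receptor, had 176, 205 and 121 counts in ID8 and 5, 2 and 2 in KMF (3.09 ± 0.930 FPKM in ID8 and 0.0578 ± 0.0392 in KMF, log2 fold change -5.72 ± 0.47, edgeR adjusted p = 7.91e-05), and -6.35 without KMF replicate 1. Among the ligands, Pdgfd had 35, 36 and 31 counts in ID8 and none in any KMF library, which is at least 11.2-fold lower against a floor of 3 counts per library. Pdgfa fell by 0.62 ± 0.10 (edgeR adjusted p = 0.00165), with 26.1% of its exon bases shared with an antisense gene model. Pdgfb and Pdgfc were not called, at log2 fold changes of 0.60 ± 0.21 and 0.48 ± 0.20 (edgeR adjusted p = 0.0565 and 0.121), and both were called when one library was left out, ID8 replicate 2 for Pdgfb and KMF replicate 3 for Pdgfc. DESeq2 called Pdgfb higher (0.0371). The summed FPKM of the 4 ligands overlapped between the lines, at 53.3 ± 6.66 in ID8 and 58.4 ± 9.59 in KMF.

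Markers of fibroblasts and pericytes were followed beside the PDGF family. Of that list, 6 of 12 were listed (Pdgfra, itself a member, with Col1a1, Col3a1, Dcn, Rgs5 and Cspg4), and their summed FPKM ranged from 77.92 to 108.7 in ID8 and from 13.56 to 26.35 in KMF. Of these markers, 5 were called lower, against 47.5% of all genes fitted, although the libraries of the lines overlapped for Rgs5. Cspg4, a pericyte marker, was called higher, with 11, 7 and 7 counts in ID8 and 53, 54 and 16 in KMF (log2 fold change 2.43 ± 0.64, edgeR adjusted p = 0.0185). None of the listed markers was at the floor in all libraries. Whether fewer cells of a type or less RNA per cell gave these levels cannot be told apart in bulk RNA, and the part of such cells in the PDGF result was not tested.

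**Figure D3:**
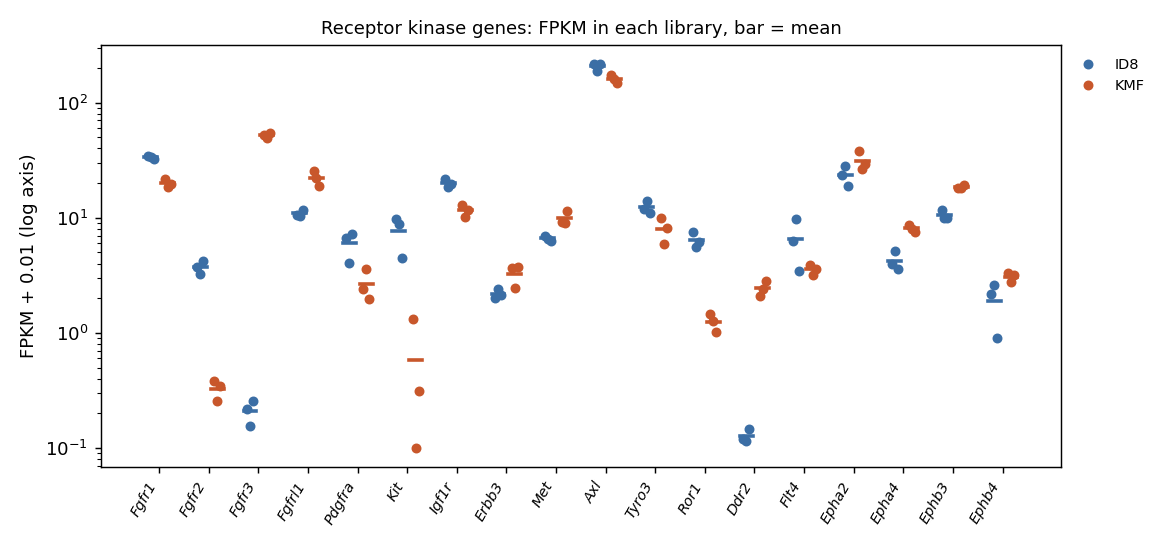
FPKM of receptor genes in each library on a log axis (0.01 was added to every value so that low values can be drawn), with ID8 in blue, KMF in red and a bar at the mean of each line. Fgfr3 and Ddr2 lie far higher in all KMF libraries and Fgfr2, Kit and Ror1 far lower, while Axl was the most abundant receptor kinase drawn in both lines.

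Among the remaining receptor kinases, the collagen receptor Ddr2 showed the largest rise. It had 27, 21 and 29 counts in ID8 and 405, 461 and 769 in KMF (chr1:169972308-170110501), or 0.117 ± 0.0168 and 2.42 ± 0.361 FPKM (log2 fold change 4.40 ± 0.19, edgeR adjusted p = 7.38e-06). Ror1, a receptor for Wnt ligands such as WNT5A (chr4:100095791-100444765), fell from 1272, 766 and 905 counts to 196, 168 and 193 (6.37 ± 1.01 FPKM in ID8 and 1.24 ± 0.218 in KMF, log2 fold change -2.33 ± 0.18, edgeR adjusted p = 6.36e-05). Met, the receptor of hepatocyte growth factor, rose from 1404, 1073 and 1094 counts to 1486, 1423 and 2599 in libraries of different totals, with 6.59 ± 0.371 FPKM in ID8 and 9.93 ± 1.36 in KMF and a log2 fold change of 0.63 ± 0.11 (edgeR adjusted p = 0.00235).

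The TAM receptors Axl and Tyro3 and their ligand Gas6 were all called lower, by small amounts. Gas6 had 26504, 18707 and 22871 counts in ID8 and 12390, 14144 and 19165 in KMF, went from 330 ± 26.8 to 220 ± 16.8 FPKM and was the most abundant ligand transcript among the members in ID8 (log2 fold change -0.54 ± 0.09, edgeR adjusted p = 0.00222). Axl had 27020, 19310 and 23750 counts in ID8 and 17412, 15882 and 21018 in KMF, or 206 ± 16.4 and 161 ± 12.4 FPKM. Its log2 fold change of -0.32 ± 0.09 was called in the full set (edgeR adjusted p = 0.0285) but gave adjusted p-values of 0.0978, 0.076, 0.104 and 0.138 without ID8 replicate 1, ID8 replicate 3, KMF replicate 2 and KMF replicate 3. Tyro3 had 1580, 1496 and 1266 counts in ID8 and 1050, 604 and 1197 in KMF (12.3 ± 1.44 FPKM in ID8 and 7.97 ± 2.06 in KMF) and fell by 0.59 ± 0.19 (edgeR adjusted p = 0.0425), a call lost without ID8 replicate 1 or 2 or KMF replicate 2 or 3 (0.0901 to 0.132).

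In the EGF family, betacellulin (Btc), a ligand of EGFR and ERBB4, had 3228, 3471 and 2299 counts in ID8 and 1422, 1068 and 1991 in KMF (39.7 ± 9.53 FPKM in ID8 and 19.3 ± 2.79 in KMF) and fell by 1.01 ± 0.19 on the log2 scale (edgeR adjusted p = 0.00386). Erbb3, a receptor with little kinase activity that signals through its partners, had 356, 348 and 328 counts in ID8 and 517, 338 and 742 in KMF (2.18 ± 0.200 FPKM in ID8 and 3.26 ± 0.721 in KMF) and was higher by 0.62 ± 0.18 (edgeR adjusted p = 0.0287). That call was lost without ID8 replicate 1 or 3 or KMF replicate 1 or 3 (0.0698 to 0.107) or under upper quartile scaling. In all, 8 of 16 alternative fits lost it, among them limma on log2(FPKM + 1) (limma adjusted p = 0.0737). Erbb4 had 2, 3 and 14 counts in ID8 and none in KMF, at least 2.12-fold lower against the floor of 3 counts. That bound came from ID8 replicate 3, since the other ID8 libraries were at or under the floor.

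The VEGF genes gave weak calls. Vegfa, the main inducer of vessel growth, had 1382, 1944 and 3593 counts in ID8 and 2470, 8654 and 9503 in KMF. The lines overlapped once scaled to library size, since ID8 replicate 3 was above KMF replicate 1. Its mean FPKM was 25.8 ± 13.7 in ID8 and 73.9 ± 39.9 in KMF (log2 fold change 1.56 ± 0.51, edgeR adjusted p = 0.0441), and the call was lost without ID8 replicate 1 or 2 or KMF replicate 2 or 3 (0.109 to 0.148) and also with library totals alone or upper quartile scaling. In all, 9 of 16 alternative fits lost it, among them at least 10 counts in every library (edgeR adjusted p = 0.0616). Vegfb, a ligand of VEGFR1, had 1091, 963 and 1089 counts in ID8 and 1098, 1248 and 1585 in KMF (31.1 ± 2.12 FPKM in ID8 and 38.6 ± 3.13 in KMF) and was higher by 0.35 ± 0.09 (edgeR adjusted p = 0.0202, but 0.0827 without ID8 replicate 1 and 0.0624 without KMF replicate 2, and lost under upper quartile scaling). Flt4, a receptor of lymphatic vessels, had 1166, 1483 and 555 counts in ID8 and 575, 462 and 746 in KMF and was not called (log2 fold change -0.84 ± 0.33, edgeR adjusted p = 0.0929). Leaving out ID8 replicate 3 brought its adjusted p to 0.0037, and DESeq2 called it lower (0.0196). Kdr, the main VEGF receptor of endothelium, had 2, 10 and 7 counts in ID8 and none in KMF, at least 2.17-fold lower.

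Of the angiopoietin-like genes, Angptl4, a secreted inhibitor of lipoprotein lipase (chr17:33773750-33781575), fell from 7117, 5946 and 6799 counts to 2084, 1850 and 3556 (82.2 ± 4.07 FPKM in ID8 and 30.1 ± 4.53 in KMF, log2 fold change -1.41 ± 0.11, edgeR adjusted p = 6.12e-05). Angptl7 (chr4:148495183-148500460) fell from 91, 99 and 40 counts to 3, 9 and 1 (1.35 ± 0.593 FPKM in ID8 and 0.0845 ± 0.0862 in KMF, log2 fold change -4.04 ± 0.70, edgeR adjusted p = 0.00271), with -5.20 without KMF replicate 2 and -3.41 without KMF replicate 3. Angptl2 was not called (log2 fold change 0.70 ± 0.24, edgeR adjusted p = 0.0567) but passed without ID8 replicate 2 or KMF replicate 2 and with DESeq2 (0.034). Tie1, an orphan receptor of endothelium, had 3, 0 and 2 counts in ID8 and 5, 17 and 15 in KMF, a ratio of 7.34 (exact 95% counting interval 2.88 to 23.9). Tek, the angiopoietin receptor, is no member by the rule. It had 2 counts in each ID8 library and 5224, 3476 and 4284 in the KMF libraries.

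Of the endothelial markers 5 of 17 were listed, namely Esam, Tek and the members Robo4, Kdr and Tie1. The summed FPKM of the 5 was 31.64 to 53.85 in ID8 and 48.12 to 72.03 in KMF. Tek supplied 27.7 to 47.6 FPKM of the KMF sums and at most 0.0178 in ID8, whereas Esam, an adhesion molecule of endothelium, was called lower (2758, 2335 and 1451 counts in ID8 and 1053, 1178 and 1249 in KMF, edgeR adjusted p = 0.0160). Of the leukocyte markers 2 of 16 were listed (Cd74 and Fcgr3), with a sum of 3.216 to 6.758 in ID8 and 0.5798 to 1.326 in KMF. The part of such cells in the VEGF and angiopoietin results was not tested.

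Among guidance genes, the SLIT and ROBO family was the most uniform: 6 of its 7 members were called lower in KMF and none higher, against 47.5% lower among all genes fitted. ROBO receptors bind SLIT proteins and mediate repulsion. Robo1 (chr16:72663149-73046095) had 2927, 1669 and 4034 counts in ID8 and 16, 9 and 25 in KMF. It varied within ID8 and was highest at passage 35, and every ID8 library lay far above every KMF library. Its mean FPKM fell from 14.4 ± 5.92 to 0.0802 ± 0.0254 (log2 fold change -7.39 ± 0.40, edgeR adjusted p = 1.73e-05). Robo2 (chr16:73892306-74411825) fell from 279, 261 and 201 counts to 4, 7 and 8 (1.15 ± 0.184 FPKM in ID8 and 0.0293 ± 0.00821 in KMF, log2 fold change -5.24 ± 0.29, edgeR adjusted p = 1.83e-05).

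Robo4, the member found in endothelium, had 196, 181 and 126 counts in ID8 and 41, 2 and 17 in KMF (1.61 ± 0.334 FPKM in ID8 and 0.197 ± 0.217 in KMF, log2 fold change -3.00 ± 0.68, edgeR adjusted p = 0.00989), and -4.22 without KMF replicate 1. Robo3 was low in both lines, with 76, 53 and 55 counts in ID8 and 12, 23 and 21 in KMF (log2 fold change -1.66 ± 0.32, edgeR adjusted p = 0.00459). The summed FPKM of the 4 ROBO genes was 17.6 ± 5.39 in ID8 and 0.449 ± 0.180 in KMF, and Robo1 supplied 79.9% of the ID8 sum. The ROBO genes on chromosomes 16 and 9 were thus all lower in KMF.

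The ligands did not all fall. Slit3 went from 162, 107 and 38 counts to 4, 4 and 2 (log2 fold change -4.82 ± 0.67, edgeR adjusted p = 0.000919), with ID8 replicate 3 again the lowest of its line. Slit1 went from 60, 55 and 59 counts to 15, 12 and 18 (log2 fold change -1.92 ± 0.27, edgeR adjusted p = 0.000996). Slit2 had 254, 173 and 103 counts in ID8 and 331, 302 and 263 in KMF, a log2 fold change of 0.86 ± 0.33 that was not called (edgeR adjusted p = 0.0791), although it passed without KMF replicate 3. The summed SLIT FPKM overlapped between the lines, at 2.08 ± 0.721 in ID8 and 1.83 ± 0.497 in KMF. Slit2 made up 46.2% of it in ID8 and 92.9% in KMF.

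**Figure D4:**
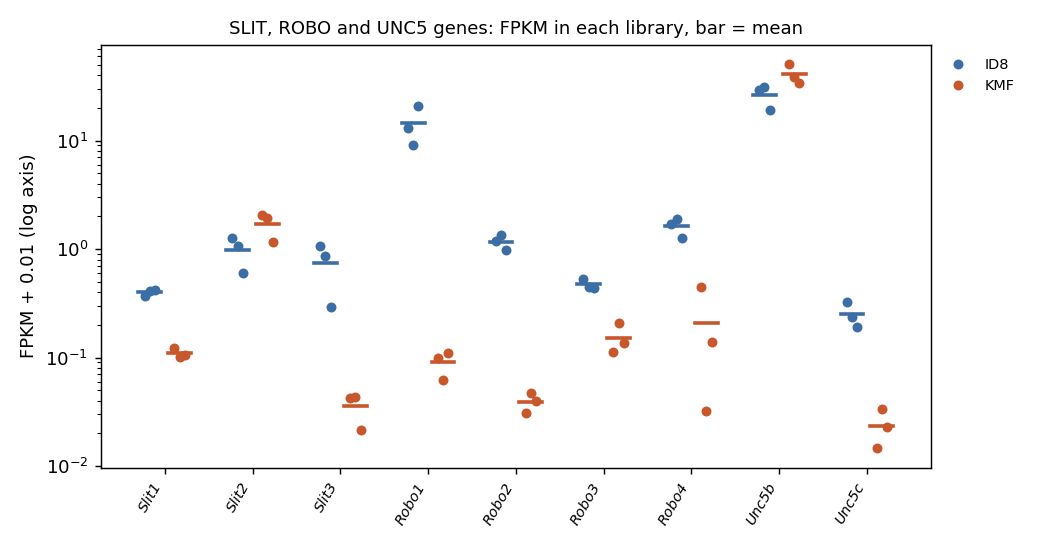
FPKM of SLIT, ROBO and UNC5 genes in each library on a log axis (0.01 was added to every value), with ID8 in blue, KMF in red and a bar at the mean of each line. All 4 ROBO genes, Slit1, Slit3 and Unc5c lie lower in every KMF library than in any ID8 library, whereas the points of Slit2 overlap.

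Of the netrin receptors, Unc5c (chr3:141465564-141834924) was scarce and fell, from 86, 51 and 43 counts to 1, 5 and 4 (log2 fold change -4.07 ± 0.49, edgeR adjusted p = 0.000479). Unc5b, the abundant one at 26.5 ± 6.46 FPKM in ID8 and 41.0 ± 8.79 in KMF, had 4999, 4436 and 2883 counts in ID8 and 7024, 5158 and 6617 in KMF and was higher by 0.67 ± 0.22 (edgeR adjusted p = 0.0435). That call was lost without ID8 replicate 1 or 3 or KMF replicate 1 or 2 (0.0627 to 0.109) or under upper quartile or RLE scaling. In all, 9 of 16 alternative fits lost it. Among these were at least 10 counts in every library (edgeR adjusted p = 0.0692) and limma on log2(FPKM + 1) (limma adjusted p = 0.0574). Ntng2, a membrane-anchored relative of netrins, had 756, 573 and 726 counts in ID8 and 513, 430 and 599 in KMF (13.2 ± 1.17 FPKM in ID8 and 9.95 ± 1.02 in KMF) and was lower by 0.37 ± 0.12 (edgeR adjusted p = 0.0445), and its adjusted p was 0.0556 to 0.188 without any single library other than KMF replicate 1.

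Semaphorins, neuropilins and plexins form the largest group, with 26 members of which 11 were called higher, 11 lower and 3 not called, near the 45.4% higher and 47.5% lower of all genes fitted. The secreted class 3 semaphorins, most of which bind neuropilins, divided. Sema3b (chr9:107597674-107609229) had 77, 58 and 87 counts in ID8 and 1170, 1036 and 1597 in KMF. It was the only one of the 6 class 3 members that was called higher, from 0.816 ± 0.152 to 13.8 ± 0.711 FPKM (log2 fold change 4.12 ± 0.15, edgeR adjusted p = 4.87e-06). Sema3g (chr14:31217860-31230350) fell from 167, 162 and 144 counts to 10, 6 and 3 (1.32 ± 0.137 FPKM in ID8 and 0.0569 ± 0.0368 in KMF, log2 fold change -4.55 ± 0.43, edgeR adjusted p = 0.00015). Sema3c, the most abundant of the class, fell from 87.7 ± 17.8 to 41.8 ± 8.22 FPKM (log2 fold change -1.03 ± 0.18, edgeR adjusted p = 0.00272), and Sema3e fell by 0.88 ± 0.17. Sema3a and Sema3d were not called, at -0.54 ± 0.20 and -0.59 ± 0.21 (edgeR adjusted p = 0.068 and 0.065), and each passed when one library was left out (KMF replicate 2 for Sema3a, ID8 replicate 2 for Sema3d). With all libraries, both were called lower by DESeq2 (0.0127 and 0.0124), upper quartile scaling (0.0336 and 0.0357) and RLE scaling (0.0421 and 0.0475). Together the class had 126.4 ± 23.6 FPKM in ID8 and 78.6 ± 4.80 in KMF, with Sema3b at 0.646% of the sum in ID8 and 17.6% in KMF.

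Of the 5 membrane-bound class 4 semaphorins, 4 were called higher and 1 lower, against 45.4% and 47.5% of all genes fitted. Sema4g was the most abundant semaphorin in both lines, at 109 ± 19.8 and 213 ± 59.9 FPKM (log2 fold change 1.00 ± 0.21, edgeR adjusted p = 0.00741). Sema4b and Sema4a rose by 0.66 ± 0.13 and 0.52 ± 0.10. Sema4d, a ligand of plexin B1, had means below 1 FPKM in both lines and rose by 1.41 ± 0.40 (edgeR adjusted p = 0.0265, with 0.0501 to 0.0818 when ID8 replicate 2 or 3 or KMF replicate 1 or 2 was left out). Sema4c, by contrast, was lower by 0.30 ± 0.10 (edgeR adjusted p = 0.0456), a call lost without any single library other than ID8 replicate 2 (0.0669 to 0.172).

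The other semaphorins mostly fell. Sema5a (chr15:32244813-32696341) went from 4112, 3342 and 1903 counts to 648, 246 and 465 (10.9 ± 3.46 FPKM in ID8 and 1.61 ± 0.824 in KMF, log2 fold change -2.72 ± 0.39, edgeR adjusted p = 0.00109). Sema7a, which is anchored by a lipid and binds integrins and plexin C1, went from 1404, 1029 and 1100 counts to 525, 178 and 391 (log2 fold change -1.63 ± 0.33, edgeR adjusted p = 0.00604). Sema6d fell by 1.50 ± 0.10 (edgeR adjusted p = 4.41e-05). Sema6b rose at a low level, from 7, 6 and 1 counts to 40, 54 and 57 (log2 fold change 3.44 ± 0.50, edgeR adjusted p = 0.00114). Sema6a was near the floor in KMF, with 23, 12 and 11 counts in ID8 and 0, 2 and 0 in KMF, a ratio of 23.2 with an exact 95% counting interval from 6.06 to 197.

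**Figure D5:**
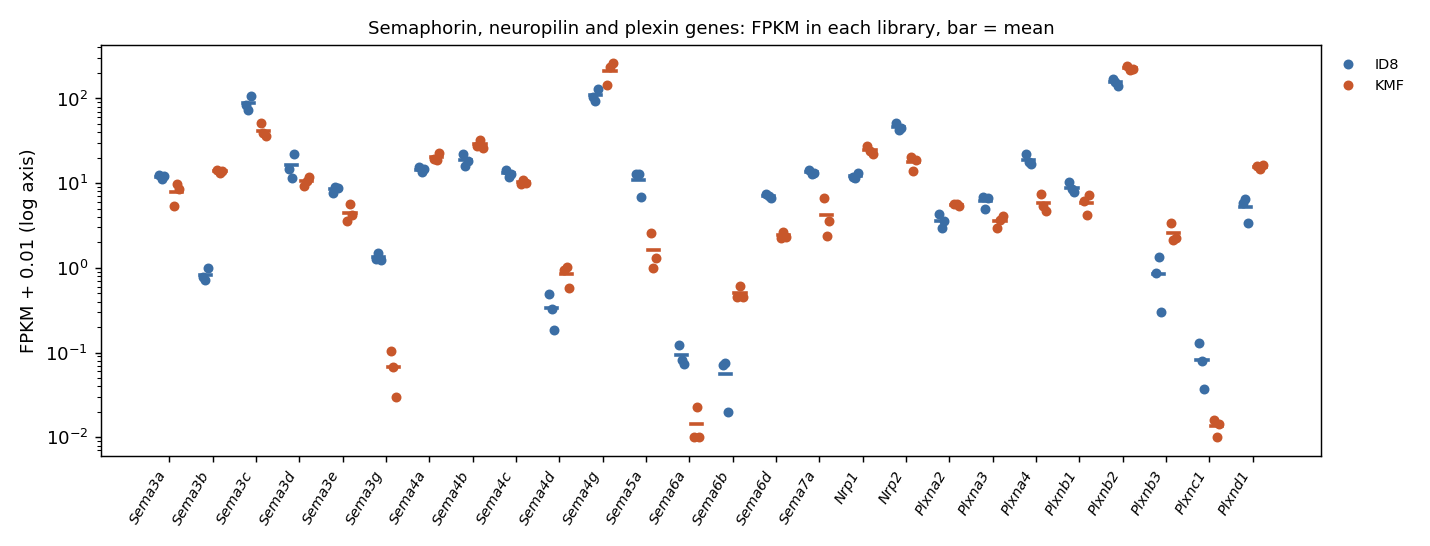
FPKM of the 26 semaphorin, neuropilin and plexin genes in each library on a log axis (0.01 was added to every value), with ID8 in blue, KMF in red and a bar at the mean of each line. Sema3b, Sema6b and Plxnd1 lie higher and Sema3g, Sema5a, Plxna4 and Nrp2 lower in every KMF library, and Sema4g and Plxnb2 are the most abundant genes of the group in KMF.

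The semaphorin receptors also moved in both directions. Nrp1 had 2033, 1658 and 1992 counts in ID8 and 3865, 3284 and 4380 in KMF (log2 fold change 1.07 ± 0.10, edgeR adjusted p = 0.000159). Nrp2 had 10062, 6941 and 7790 counts in ID8 and 3267, 2148 and 4222 in KMF (log2 fold change -1.34 ± 0.15, edgeR adjusted p = 0.000311). Both proteins also bind VEGF. Nrp1 thereby made up 18.7% to 22.5% of the neuropilin FPKM in the ID8 libraries and 54.1% to 63.5% in the KMF libraries, and the sum of both was lower in KMF, at 58.4 ± 4.02 against 42.5 ± 5.35.

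Among plexins, Plxnb2 was the most abundant and rose from 155 ± 14.8 to 228 ± 12.5 FPKM (log2 fold change 0.60 ± 0.10, edgeR adjusted p = 0.00227). Plxnd1, the receptor of Sema3e (chr6:115954811-115995005), rose from 1188, 1088 and 599 counts to 2586, 2335 and 3745 (log2 fold change 1.61 ± 0.22, edgeR adjusted p = 0.000927), while Sema3e itself fell. Plxna4 (chr6:32144268-32588192), a partner of neuropilins, fell from 8388, 5472 and 5531 counts to 2272, 1586 and 1982 (log2 fold change -1.65 ± 0.19, edgeR adjusted p = 0.000405). Plxna2 rose by 0.67 ± 0.13 and Plxna3 fell by 0.74 ± 0.16. Plxnb3 had 156, 202 and 46 counts in ID8 and 497, 303 and 458 in KMF (0.828 ± 0.529 FPKM in ID8 and 2.57 ± 0.710 in KMF) and rose by 1.67 ± 0.48 (edgeR adjusted p = 0.0267, with 0.0816 without ID8 replicate 1 and 0.0739 without KMF replicate 1). Plxnb1 was not called (-0.56 ± 0.19, edgeR adjusted p = 0.0559), but it passed as lower with DESeq2 (0.012), library totals (0.0473), upper quartile scaling (0.0296), RLE scaling (0.042) and the stricter count filter (0.0491), and without ID8 replicate 3 or KMF replicate 3. Plxnc1 had 25, 12 and 5 counts in ID8 and 1, 0 and 1 in KMF, a ratio of 21.2 (exact 95% counting interval 5.50 to 180).

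In the ephrin and EPH family, 5 of 10 members were called higher and 3 lower, against 45.4% and 47.5% of all genes fitted. Ephrins are membrane-bound ligands that meet EPH kinases on a touching cell. Efna1 rose from 114, 83 and 118 counts to 457, 675 and 647, or from 2.43 ± 0.359 to 13.9 ± 3.46 FPKM (chr3:89271733-89281142, log2 fold change 2.55 ± 0.21, edgeR adjusted p = 8.8e-05). Efna5 rose from 822, 636 and 588 counts to 1305, 1157 and 1875 (6.38 ± 0.631 FPKM in ID8 and 13.4 ± 0.846 in KMF, log2 fold change 1.11 ± 0.10, edgeR adjusted p = 0.000144). Efna3 was scarce, with 7, 4 and 1 counts in ID8 and 12, 20 and 35 in KMF (log2 fold change 2.45 ± 0.57, edgeR adjusted p = 0.0108), and 14.1% of its exon bases are shared with an antisense gene model. All 3 listed ephrin A ligands were therefore higher, and the 1 listed ephrin B ligand, Efnb1, fell by 0.51 ± 0.09 (edgeR adjusted p = 0.00286).

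Of the EPH receptors, Epha4 had 736, 777 and 585 counts in ID8 and 1296, 1176 and 1588 in KMF (4.21 ± 0.777 FPKM in ID8 and 8.09 ± 0.566 in KMF) and rose by 0.98 ± 0.15 (edgeR adjusted p = 0.00132). Ephb3 had 1632, 1134 and 1208 counts in ID8 and 2027, 1975 and 3020 in KMF (10.5 ± 1.01 FPKM in ID8 and 18.4 ± 0.637 in KMF) and rose by 0.85 ± 0.09 (edgeR adjusted p = 0.000201). Ephb1 (chr9:101922128-102354693) had 84, 65 and 64 counts in ID8 and 1, 1 and 2 in KMF, a ratio of 53.7 with an exact 95% counting interval from 20.7 to 199. Epha1 stayed below 1 FPKM and fell by 2.16 ± 0.60 (edgeR adjusted p = 0.0236, but 0.098 without ID8 replicate 1 and 0.0711 without KMF replicate 3). Epha2, the most abundant EPH gene at 23.5 ± 4.77 and 31.4 ± 5.80 FPKM, was not called (log2 fold change 0.45 ± 0.18, edgeR adjusted p = 0.0969), nor was Ephb4 (0.74 ± 0.35, edgeR adjusted p = 0.166). Epha2 passed without ID8 replicate 2.

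The remaining members are pleiotrophin and the name matches. Ptn, a heparin-binding growth factor, had 2, 2 and 0 counts in ID8 and 37, 49 and 2 in KMF, a ratio of 21.8 (exact 95% counting interval 8.23 to 81.9) that came from KMF replicates 1 and 2. Egflam, a matrix protein also called pikachurin, fell from 380, 492 and 165 counts to 2, 2 and 8 (2.77 ± 1.46 FPKM in ID8 and 0.0288 ± 0.0188 in KMF, log2 fold change -6.41 ± 0.61, edgeR adjusted p = 0.000156, and -7.13 without KMF replicate 3). Egfl6, a secreted matrix protein, had 24, 15 and 7 counts in ID8 and none in KMF, at least 4.92-fold lower. Slitrk5, a neuronal membrane protein, rose by 2.84 ± 0.34, and Fgfr1op, a centrosomal protein, had 718, 536 and 573 counts in ID8 and 999, 958 and 1436 in KMF (6.55 ± 0.344 FPKM in ID8 and 12.1 ± 0.254 in KMF) and rose by 0.92 ± 0.08 (edgeR adjusted p = 0.000133).

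By role, the ligands (37 members) and the receptors (39 members) included 13 and 13 called higher and 17 and 18 called lower, against 45.4% higher and 47.5% lower among all genes fitted.

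The other genes of these pathways were followed in lists of partners, read against the same 45.4% higher and 47.5% lower of all genes fitted. Of 14 further receptor kinases, 5 were listed, with 2 called higher (Tek, at least 1461-fold against the floor of 3 counts per library, and Lmtk3, at 1.72 ± 0.21 on the log2 scale) and 3 lower, of which Ptk7, a receptor of the planar polarity pathway, fell by 1.05 ± 0.16. Of 39 adaptors and early substrates, 18 were listed, with 7 called higher and 10 lower. The docking proteins Shc2 and Nck1 rose by 5.84 ± 0.58 and 1.15 ± 0.13, and the scaffolds Gab2 and Frs3, the latter a substrate of FGF receptors, fell by 1.49 ± 0.20 and 1.25 ± 0.19.

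Of 22 feedback inhibitors and ERK target genes, 13 were listed, with 7 called higher and 4 lower. Ier3 and Phlda1 rose by 1.46 ± 0.21 and 1.20 ± 0.13, whereas Il17rd, an inhibitor of FGF signaling also known as Sef, fell by 3.75 ± 0.20 and Lrig1, which restrains ERBB receptors, by 0.80 ± 0.10. Of 38 guidance partners, 21 were listed, with 12 higher and 8 lower. The adhesion molecule Chl1 and the semaphorin effector Mical1 rose by 6.01 ± 0.39 and 5.08 ± 0.21. The actin regulator Evl and the UNC5 ligand Flrt3 fell by 6.44 ± 0.33 and 2.67 ± 0.41. Of 23 heparan sulphate coreceptor and modifying genes, 9 were listed, with 3 higher and 5 lower. Gpc6 and Sulf2 rose by 5.55 ± 0.31 and 2.14 ± 0.26, while their relatives Gpc4 and Sulf1 fell by 2.83 ± 0.24 and 1.66 ± 0.16.

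Several members are neighbours on a chromosome. With a limit of 1 Mb between them, 17 members formed 7 groups. The counts of called genes in and around them stand against 45.4% higher and 47.5% lower of all genes fitted. Robo1 and Robo2 lie together on chromosome 16, both fell, and no other listed gene lies within 1 Mb. Kit, Pdgfra and Kdr span chr5:75152291-75978458. Kit and Pdgfra were called lower and Kdr was at 0 counts in KMF, although 7 of the 8 other listed genes within 1 Mb were called higher. Sema4a, Efna1 and Efna3 on chromosome 3 were all higher, as were 37 of the 46 other listed genes around them. Ephb3 and Igf2bp2 on chromosome 16 were both higher, with 17 of 26 others. Plxnb3 and Plxna3 on chromosome X went in opposite directions.

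A promoter window was found for 70 of the 94 members. The windows held a median of 25.5 CG dinucleotides in the 24 members called higher and 17 in the 31 called lower. The median was 7 over all 32851 RefSeq windows of the same length. That reference, also used for the motifs below, was not limited to the listed genes. Whether the members differ from other listed genes in CG count or in motifs was not tested. A total of 3 short motifs were counted on both strands: CTTTGA, which TCF factors of the Wnt pathway can bind, CACGTG, the E-box that MYC can bind, and ACGTG, the core of the hypoxia response element, which is contained in the E-box. The first of these, CTTTGA, was in 0 of the 24 higher and 5 of the 31 lower windows, against 16.0% of all windows. CACGTG was in 16.7% of the higher and 9.68% of the lower windows, against 7.15% of all. ACGTG was in 9 of the higher windows (37.5%) and 3 of the lower (9.68%), against 19.6% of all. Both CACGTG and ACGTG contain a CG, of which the higher windows held more, and the part of base composition in these shares was not tested. None of the 3 was found in the windows printed above for Fgfr3, Igfbp4, Robo1 and Robo2. A match of letters is a description and not a binding site.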

How the data were processed

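RNA from 3 samples of each line was sequenced by a service provider from poly-A libraries made with a kit that does not mark strand. The study's methods name TopHat2 for mapping, the submitters' processing notes name CASAVA 1.8, STAR 2.5, DESeq2 and mm10, and the counting tool and annotation are not given in the sources used here. Positions are as deposited, and 7286 of 7320 listed genes overlapped their GENCODE M21 position on GRCm38. The deposited table holds raw counts per gene and library and FPKM, which the authors scaled to listed gene length and to each library's fragments. The signal column of each line in the deposited table is the authors' mean of scaled counts and was not used. The authors' deposited log2 fold change and p-value columns hold their DESeq2 comparison. No result was taken from them; they served to learn that the largest adjusted p-value in the deposited table was 0.0499 and that 17359 genes had been tested. A total of 14 symbols that had become dates were restored from gene identifiers.

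Library totals were recovered from count, FPKM and length. The quasi-likelihood test of edgeR 4.0.16 under R 4.3.3 (functions glmQLFit and glmQLFTest, two-sided) was run on counts of all listed genes with TMM, filterByExpr and no covariate. The filter removed 353 genes. Adjusted p-values are Benjamini-Hochberg values over 17359 genes, with genes outside the table ranked last. The fit was also run on simulated counts in which 200 of 7320 genes were changed by 1 log2 unit. It recovered 97% of them and called 8 unchanged genes. The simulation gave every gene the same spread and left most genes unchanged. It therefore does not cover a table in which most genes differ. SE is the absolute log2 fold change divided by the square root of F. Members at 3 counts or fewer in all libraries of a line have a bound against a floor of 3 counts per library where that line had none, or a ratio with an exact 95% interval, which covers counting error only. No molecular identifiers were used. Alternatives were DESeq2 1.42.0, limma 3.58.1 on FPKM, other scalings and filters, and each library left out.

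The members and lists were chosen with earlier results of these data known. Full values were given, in each family, for the up to 4 called members with the largest changes and at least 1 FPKM in a line. Members at the floor have their counts with a bound or ratio. Other members have shorter values or, for some, their counts as well, and partner genes were named by the 2 largest changes in each direction with at least 1 FPKM. Other tools were Python 3.11.15, numpy 2.4.6, pandas 2.3.3 and matplotlib 3.10.9.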

Additional observations from a re-analysis of the deposited data

How the results depend on the processing

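A total of 16 alternative fits gave 1338 member values, since members with few counts dropped out of some fits. No member changed direction in a fit that tested it, and 64 of the 87 fitted members stayed on the same side of the threshold in every fit that tested them. A total of 14 members lost their call in some alternative and 9 gained one. The number of members called was between 55 (limma on log2 FPKM, which tested fewer genes) and 86 (adjustment over the listed genes alone), and DESeq2 called 82. Under upper quartile scaling, which shifted the median of all genes by -0.11 on the log2 scale, 13 members were called at least 2-fold higher, and the cause was not tested. With a minimum of 10 counts in every library, which removes genes near 0 in a line, 17 were called at least 2-fold lower. Limma on log2(FPKM + 1) called 7 at least 2-fold higher and 18 lower, and on log2(FPKM + 0.1) it called 13 and 20. Both limma fits tested only genes with a mean FPKM above 1 over all libraries, so that members with a lower mean were left out. The parts of this filter and of the added constant in these counts were not tested. With each library left out in turn, 65 to 76 members were called, 27 to 33 higher and 38 to 45 lower, with 16 to 19 at least 2-fold higher and 31 to 35 at least 2-fold lower. With an FPKM threshold of 2 in place of 1, 50 members were expressed in both lines, 11 in ID8 alone and 6 in KMF alone, and with 0.5 there were 60, 15 and 5.

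Replicate numbers are shared by the lines. Deviations from the line means correlated at 0.077, -0.133 and 0.088 between same-numbered samples, and from -0.223 to 0.207 between the others. With 3 samples per line, these values cannot decide whether the numbers mark a shared batch. A fit with the replicate number as a block called 75 members, 33 higher and 42 lower, with 18 and 31 at least 2-fold. Depth limits the members near the floor, where 3 counts were 0.0903 to 0.130 CPM.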
